A study of Mus musculus with 8 samples.

Results

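Serpina3n and 9 genes named with it were examined in mouse esophagi with and without monoacylglycerol lipase (MGL), the enzyme that degrades the endocannabinoid 2-arachidonoylglycerol. The genes were Serpina3n, its chromosome 12 neighbours Serpina3c, Serpina3f, Serpina3g, Serpina3h, Serpina3i and Serpina3m, and the acute phase genes Lcn2, Saa3 and Hp. They were selected by symbol from the deposited count table, in which 9 of the 10 symbols were found among 32849 listed genes. Serpina3h was not among the listed symbols and was not analysed here. Serpina3n was chosen because of its difference between the groups in these same libraries, so all differences between MGL KO and WT given for the 10 genes are descriptions, and none of them is independent support.

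The study compared whole frozen esophagi of healthy mice at baseline, with 4 MGL KO and 4 WT libraries made from poly(A)-selected RNA. MGL KO mice, which lack the lipase, were bred in-house, and the WT animals were littermates. The mice were adult males and females, and the sex of each library, any pooling of animals and the strain background of the MGL KO line were not given in the sources used here. The labels name no treatment of either group. Each library held between 13479069 and 17090152 counts. In normalized CPM (counts relative to a library size scaled by TMM factors), Mgll itself was at 13.7 ± 1.54 in MGL KO and 81.2 ± 9.97 in WT (SD, n = 4 each). MGL KO replicate 4 stood apart, with a summed level of 9 airway secretory markers of 11616 normalized CPM against 71.8 or less in every other library, and values that rest on it are given with and without it. Nothing in the labels says that the libraries of a group came from separate mice, so p-values measure the spread between these libraries.

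The acute phase response is the change in secreted proteins that follows tissue injury or infection. Its cytokines, above all interleukin-6 and interleukin-1, act through STAT3, C/EBP and NF-kB transcription factors, and glucocorticoids enhance many of the same genes. Although the liver is the main source, epithelium, macrophages, fat and glia also make several of these proteins, among them SERPINA3N, a secreted inhibitor of serine proteases such as granzyme B, and the extrahepatic serum amyloid SAA3. The mouse carries many copies of Serpina3 in a row on chromosome 12 where humans have a single gene.

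Promoter windows (the 250 bases before the RefSeq start) were at hand for 7 of the 10 genes. They came from RefSeq on GRCm38.p6 and were placed on GRCm39 by exact match. They show how far the serpin copies resemble each other in front of the gene. Capitals mark matches to 4 short motifs searched on both strands, namely STAT (TTCNNNGAA), C/EBP (TTGCNNAA), NF-kB (GGNNTTTCC) and glucocorticoid receptor (ACANNNTGT). The stretch of the Serpina3n window upstream of all annotated exons of the gene lies at chr12:104372717-104372809 on the forward strand of GRCm39, and its capitals match NF-kB. For Serpina3i the corresponding stretch lies at chr12:104229131-104229362 on the forward strand. For Serpina3c the stretch at chr12:104120151-104120381 on the reverse strand is outside the annotated exons but within the annotated gene, which begins further upstream.
Serpina3n: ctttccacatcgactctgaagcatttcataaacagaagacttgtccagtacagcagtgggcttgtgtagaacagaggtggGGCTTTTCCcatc
Serpina3c: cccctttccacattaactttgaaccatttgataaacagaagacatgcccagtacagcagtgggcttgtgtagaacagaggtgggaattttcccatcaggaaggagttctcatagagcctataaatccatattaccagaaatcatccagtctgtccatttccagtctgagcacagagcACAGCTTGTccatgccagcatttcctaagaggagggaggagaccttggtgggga
Serpina3i: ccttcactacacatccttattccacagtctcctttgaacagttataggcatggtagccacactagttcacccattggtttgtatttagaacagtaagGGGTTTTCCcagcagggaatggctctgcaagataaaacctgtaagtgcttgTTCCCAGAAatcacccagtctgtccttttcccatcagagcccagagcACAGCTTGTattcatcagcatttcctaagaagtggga

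Over the whole window Serpina3n and Serpina3c were identical in 229 of 253 aligned columns (90.5%), whereas Serpina3n and Serpina3i were identical in 62.2% and Serpina3n and Saa3 in 44.3%. The NF-kB match of Serpina3n lay from -170 to -162 relative to the RefSeq start, and the Serpina3c window held no match to that motif. A glucocorticoid receptor match with the same 9 letters stood in 4 serpin windows, shown with their flanks.
Serpina3n glucocorticoid receptor segment, chr12:104372881-104372910: agcacagagcACAGCTTGTccatgccagca
Serpina3c glucocorticoid receptor segment, chr12:104120185-104120214: agcacagagcACAGCTTGTccatgccagca
Serpina3f glucocorticoid receptor segment, chr12:104180710-104180739: aacccagagcACAGCTTGTatacatcacca
Serpina3i glucocorticoid receptor segment, chr12:104229316-104229345: agcccagagcACAGCTTGTattcatcagca

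The 30-base segments of Serpina3n and Serpina3c were identical in 30 of 30 bases, and those of Serpina3n and Serpina3i in 23 of 30. Of the 7 windows, 5 held a glucocorticoid receptor match (the 4 related serpin copies and Lcn2), 4 an NF-kB match, 3 a STAT match and 3 a C/EBP match. Among 11559 windows of tested genes, the shares with a match were 3.77% for the glucocorticoid receptor, 5.12% for NF-kB, 5.81% for STAT and 7.63% for C/EBP. The serpin copies share sequence and do not count as separate cases. For the acute phase genes on other chromosomes, the C/EBP matches are shown, which lay at -216 in Lcn2 and, read on the opposite strand, at -99 in Saa3.
Lcn2 C/EBP segment, chr2:32277949-32277978: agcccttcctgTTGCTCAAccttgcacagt
Saa3 C/EBP segment, chr7:46365181-46365210: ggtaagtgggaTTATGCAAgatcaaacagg

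In GENCODE M39 several of these genes start further upstream than in RefSeq. Thus 157 of the 250 window bases of Serpina3n and 250 of those of Saa3 lay within annotated exons of the gene. A match of letters is a description and says nothing of binding.

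Serpina3n (ENSMUSG00000021091) spans chr12:104372810-104380597 on the forward strand of GRCm39 and overlaps no other annotated gene. It was the most abundant serpin of the cluster in WT esophagi. Its level was 74.8, 102.4, 96.8 and 178.0 normalized CPM in WT replicates 1 to 4. In MGL KO replicates 1 to 4 it was 31.4, 19.0, 21.5 and 18.4 normalized CPM. Every MGL KO library lay below every WT library, and the lowest WT library was 2.38 times the highest MGL KO library. The means were 22.6 ± 6.03 in MGL KO and 113.0 ± 45.0 normalized CPM in WT (SD, n = 4 each). Within WT the level varied by 2.38-fold, mainly through replicate 4, and within MGL KO by 1.70-fold. The log2 fold change was -2.32 with a standard error of 0.29. In edgeR's quasi-likelihood test over 14864 genes its adjusted p was 0.0494, directly under the threshold of 0.05. This contrast chose the gene, and so the p-value only places it among all genes, where it ranked 6th by p and 13th among the lowest fold changes.

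**Figure D1:**
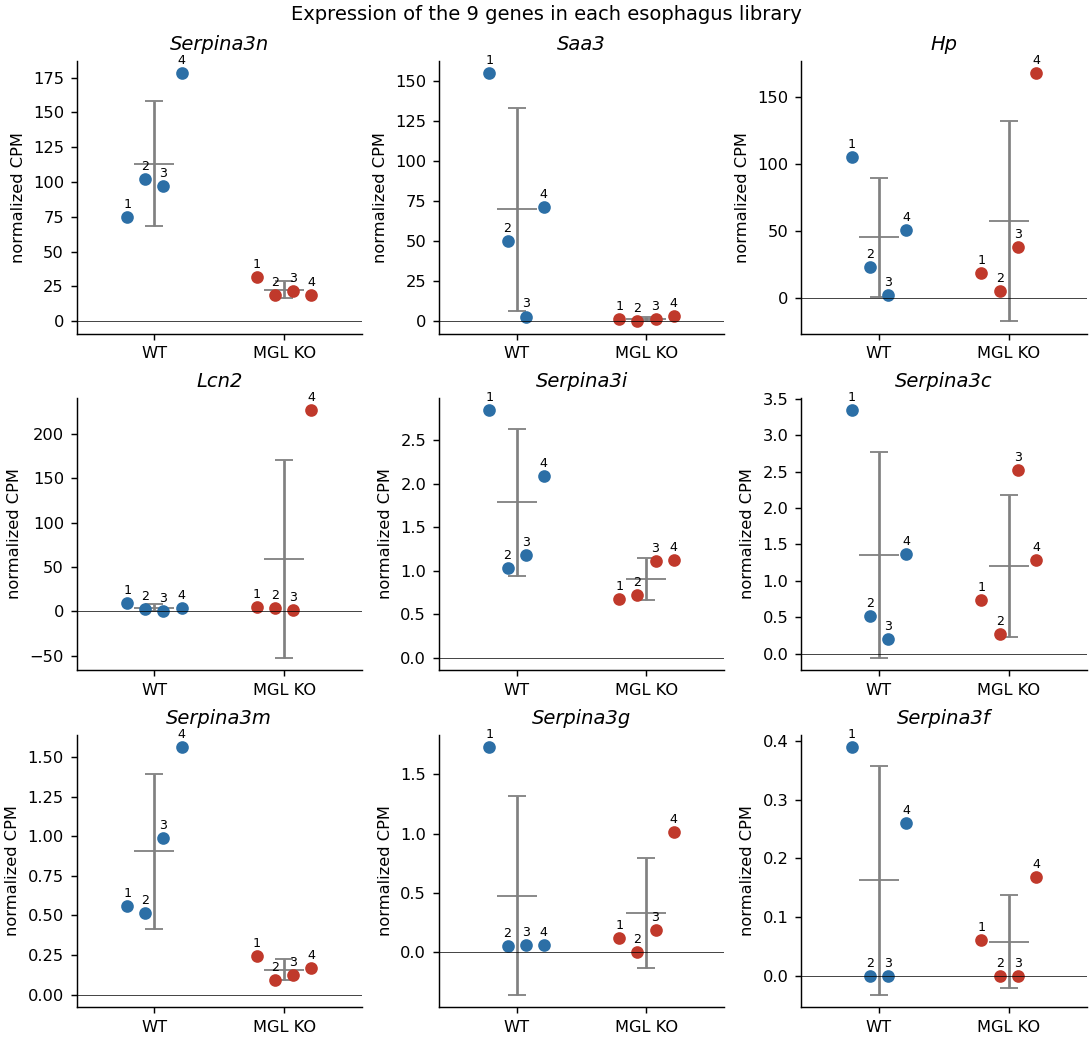
Normalized CPM (linear axes that differ between panels) of the 9 listed genes in the 4 WT (blue) and 4 MGL KO (red) libraries, numbered by replicate; the grey bar and whiskers are the mean ± SD. The MGL KO libraries of Serpina3n sit between 18.4 and 31.4 and all WT libraries at 74.8 or above, whereas Lcn2 and Hp are highest in MGL KO replicate 4.

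The call of Serpina3n depended on how the test was set, while its fold change varied little. It lay between -2.36 and -2.26 on the log2 scale in 8 other fits on all libraries, and between -2.52 and -2.01 when each library was left out in turn. The study's methods name edgeR's exact test, but the one used here is not a rerun of it. It gave Serpina3n a smaller adjusted p than the study reported. Adjusted p was 1.29e-10 in the exact test used here, 9.28e-12 in DESeq2 and 0.0252 in limma-voom with quality weights. It was 0.0743 with library size alone as the scaling, 0.0574 without the count filter and between 0.0412 and 0.208 with 1 library left out, where the call remained only without WT replicate 4.

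The other Serpina3 copies were scarce. A CPM of a single library rests on few counts here, and 3 counts, which an observed 0 still allows, equalled between 0.167 and 0.271 normalized CPM (counting error only). Serpina3c was at 3.35, 0.51, 0.20 and 1.37 normalized CPM in WT replicates 1 to 4 and at 0.73, 0.27, 2.53 and 1.29 in MGL KO replicates 1 to 4. The groups overlapped throughout, and the log2 fold change was -0.15 with a standard error of 0.84. Leaving out WT replicate 1 gave 0.82, and leaving out MGL KO replicate 3 gave -0.79, so that its sign was not determined.

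Serpina3i was at 2.84, 1.03, 1.18 and 2.09 normalized CPM in WT replicates 1 to 4 and at 0.67, 0.72, 1.11 and 1.12 in MGL KO replicates 1 to 4. Its mean was 0.91 ± 0.24 in MGL KO and 1.79 ± 0.85 normalized CPM in WT (SD, n = 4 each), and the upper MGL KO libraries overlapped the lower WT ones. For this gene the log2 fold change was -0.96 with a standard error of 0.40 and an adjusted p of 0.559 in the quasi-likelihood test.

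Serpina3m, Serpina3g and Serpina3f had counts but did not pass the filter on low counts and were not tested in that fit. Serpina3m had 10, 9, 15 and 24 counts in WT replicates 1 to 4 and 4, 1, 2 and 3 counts in MGL KO replicates 1 to 4. Its MGL KO libraries all lay below its WT libraries, from 0.09 to 0.24 against 0.51 to 1.56 normalized CPM. Without the filter its log2 fold change was -2.45 with an adjusted p of 0.538, and the exact test without the filter gave 0.134. Serpina3m overlaps Serpina3k in the annotation, and 8.15% of the 50-base words of its transcript also occur in Serpina3k, so the assignment of its few reads is uncertain. Serpina3g was almost confined to single libraries, with 31 counts in WT replicate 1 and 18 counts in MGL KO replicate 4. Its other 6 libraries held between 0 and 3 counts each. Serpina3f had 7, 0, 0 and 4 counts in WT and 1, 0, 0 and 3 counts in MGL KO replicates 1 to 4.

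Reads of near-identical copies can be split between them or dropped, depending on the counting, which is not given in the sources used here. For Serpina3n, 6.31% of its 50-base words and 0.19% of its 100-base words occurred in other transcripts of the family. The shares were 16.5% and 2.24% for Serpina3i and 16.8% and 4.00% for Serpina3g. Lcn2 and Hp shared none of their words with the serpin and Saa transcripts searched. No relatives of Lcn2 or Hp themselves were searched, so this says nothing of reads shared with those.

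On a scale per length (normalized CPM per kb of exon), which allows genes to be compared, Serpina3n was at 28.9 ± 11.5 in WT and 5.78 ± 1.54 in MGL KO esophagi (SD, n = 4 each). Among the other serpins of the cluster the highest WT level was that of Serpina9, a serpin of germinal centre B cells, at 0.69 ± 0.34. Serpina3i followed at 0.29 ± 0.14, Serpina3b at 0.26 ± 0.29 and Serpina3c at 0.23 ± 0.24, and these neighbours in the order overlapped within their SD. Of 24 serpin genes of the cluster that were listed, 4 had no count in any library (Serpina1f, Serpina3a, Serpina16 and Serpina3l-ps), 14 had counts but a mean under 1 normalized CPM, and 6 reached a mean of 1.

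Serpina3n made up 85.3%, 93.3%, 95.0% and 94.2% of the summed normalized CPM of the cluster in WT replicates 1 to 4. In MGL KO replicates 1 to 4 its share was 84.8%, 80.2%, 42.3% and 29.5%. The low shares of MGL KO replicates 3 and 4 went with other serpins. In MGL KO replicate 3, Serpina1e, a copy of the hepatocyte alpha1-antitrypsin gene, was at 9.13 and Serpina3k at 7.52 normalized CPM, against 0.73 or less and 0.81 or less in all other libraries. In the same library albumin (Alb) was at 42.8 normalized CPM against 5.82 or less elsewhere. In MGL KO replicate 4, Serpina9 was at 37.9 normalized CPM against 3.91 or less elsewhere. The part of hepatocyte or airway RNA in these values was not tested.

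**Figure D2:**
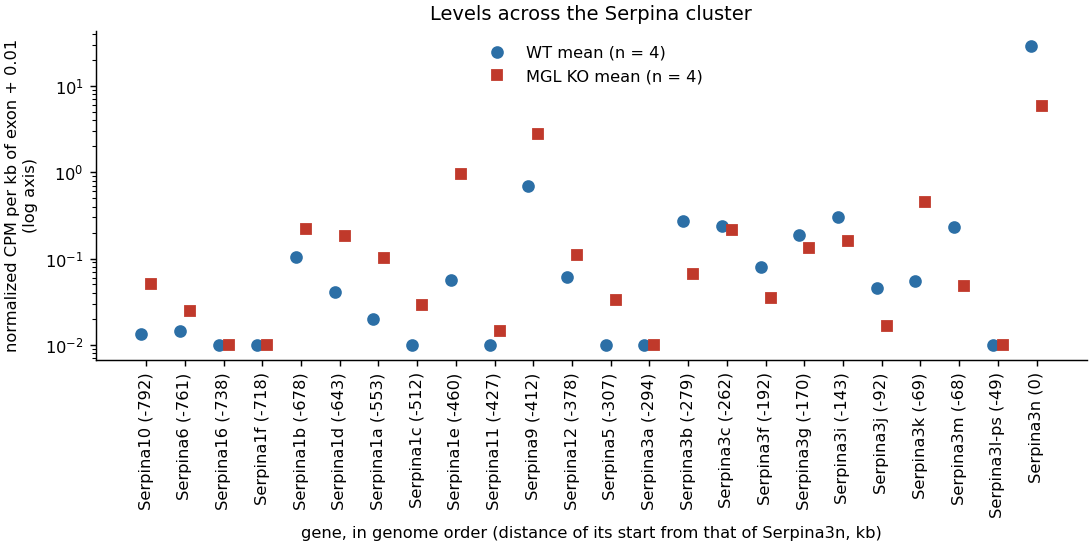
Mean normalized CPM per kb of exon plus 0.01 (log axis) of 24 serpin genes in genome order, with the distance of each gene's start from that of Serpina3n in kb, in WT (blue circles) and MGL KO (red squares; n = 4 each). Serpina3n stands at 28.9 in WT and 5.78 in MGL KO, and no other serpin exceeds 0.69 in WT.

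Saa3 (ENSMUSG00000040026), an acute phase apolipoprotein gene of macrophages and fat, spans chr7:46361422-46365576 on the reverse strand. It was at 154.8, 50.1, 2.96 and 71.5 normalized CPM in WT replicates 1 to 4. In MGL KO replicates 1 to 4 it was at 1.35, 0.09, 1.11 and 3.03 normalized CPM. The groups overlapped only because WT replicate 3 lay below MGL KO replicate 4, while the other 3 WT libraries were at 50.1 or above. The means were 1.40 ± 1.22 in MGL KO and 69.8 ± 63.5 normalized CPM in WT (SD, n = 4 each). At -5.56 (standard error 1.11), its log2 fold change was the second lowest of 14864 tested genes. Adjusted p was 0.262 in the quasi-likelihood test, 0.371 in limma-voom, 0.00164 in the exact test and 0.000543 in DESeq2. It stayed between -6.25 and -4.83 on the log2 scale whichever library was left out.

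The relatives of Saa3 next to it on chromosome 7 did not pass the count filter. Saa2, whose protein is made mainly in liver, had no count in any MGL KO library, which allows up to 0.049 normalized CPM over the group, and was at 1.95, 0.11, 0.07 and 4.89 normalized CPM in WT replicates 1 to 4. Saa1 was at 2.51, 0.46, 0.20 and 1.5 in WT and at 0.00, 0.09, 0.31 and 0.00 normalized CPM in MGL KO replicates 1 to 4. High values of both stood in WT replicates 1 and 4, where Saa3 was highest as well.

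Hp (ENSMUSG00000031722), which encodes the hemoglobin scavenger haptoglobin, spans chr8:110301759-110305804 on the reverse strand. It was at 104.7, 23.0, 1.71 and 50.8 normalized CPM in WT replicates 1 to 4 and at 18.6, 5.05, 37.6 and 167.2 in MGL KO replicates 1 to 4. The groups overlapped over nearly their whole range. Its log2 fold change was 0.35 with a standard error of 1.13, and it was -1.13 without MGL KO replicate 4.

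Lcn2 (ENSMUSG00000026822), which encodes the siderophore-binding protein lipocalin-2 of neutrophils and stressed epithelium, spans chr2:32274645-32278264 on the reverse strand. It was at 9.71, 2.97, 0.72 and 3.19 normalized CPM in WT replicates 1 to 4 and at 5.08, 3.16, 1.66 and 226.9 in MGL KO replicates 1 to 4. A single library, MGL KO replicate 4, was far above all others, and the other 7 overlapped. On the log2 scale the difference of 3.82 (standard error 1.59) became -0.33 without that library. Per kb of exon, WT levels were 26.5 ± 26.2 for Hp, 22.4 ± 20.4 for Saa3 and 1.58 ± 1.48 for Lcn2 (SD, n = 4 each), so that Serpina3n, Hp and Saa3 did not differ beyond their spread.

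Of the 6 genes that passed the count filter, 1 (Serpina3n) was called by the quasi-likelihood test, in which 0.0471% of all tested genes were called. At an unadjusted p under 0.05 they were 4, of which Serpina3n, Saa3 and Serpina3i were lower and Lcn2 was higher in MGL KO, beside 8.65% of all tested genes. The MGL KO libraries lay wholly below the WT libraries for 1 of the 6 and wholly above for none, beside 3.3% and 2.72% of all tested genes. The exact test and DESeq2 called 2 each (Serpina3n and Saa3), with 0.437% and 0.922% of all genes called. The exact test without the filter also called these 2 (0.185% of all genes), and limma-voom called 1 (0.168%). Nothing is read from these shares, since the genes were chosen on this contrast. A gene that passes the filter only through the group where it is high had to differ.

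The genes did not vary together in a single pattern. As a description over 8 libraries of unequal cell composition, the log2 CPM of Saa3 and Hp had a Pearson correlation of 0.96 once group means were removed, and Serpina3n and Saa3 one of 0.09. In WT esophagi the order of replicates was 1, 4, 2, 3 from high to low for Saa3, Hp, Lcn2 and Serpina3c. The summed markers of adipocytes, macrophages, neutrophils, fibroblasts, hepatocytes and endothelium had the same order, so it was not particular to any of these cell types. Serpina3n had the order 4, 2, 3, 1. WT replicate 1, the highest library for the 4 others, was thus the lowest for Serpina3n.

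Markers of other cell types in the esophageal wall were set beside Saa3, Hp and Lcn2. In bulk tissue, fewer cells of a type and less RNA per cell cannot be told apart. The 8 adipocyte markers summed to 667.2, 221.0, 88.8 and 361.8 normalized CPM in WT and to 200.3, 110.8, 597.9 and 764.4 in MGL KO replicates 1 to 4, with none called. MGL KO replicates 3 and 4 were thus near WT replicate 1 in this sum, while their Saa3 was at 1.11 and 3.03 against 154.8 normalized CPM. Relative to the adipocyte sum, a ratio formed after the values were seen, Saa3 was 23.2%, 22.7%, 3.33% and 19.7% in WT and 0.67%, 0.081%, 0.19% and 0.40% in MGL KO replicates 1 to 4. On this ratio the groups did not overlap. For Hp the same ratio ran from 1.92% to 15.7% in WT and from 4.56% to 21.9% in MGL KO, and the groups overlapped. The part of adipocytes in the Saa3 and Hp values was not tested.

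The 8 macrophage markers summed to 1237, 406.4, 303.8 and 621.4 normalized CPM in WT and to 309.2, 301.4, 361.9 and 1540 in MGL KO replicates 1 to 4. Of these 8, 7 had a negative and 1 a positive log2 fold change, with a median of -0.90 beside 0.02 over all tested genes, and none was called. At an unadjusted p under 0.05, 7 were lower and none was higher in MGL KO, beside 4.29% and 4.35% of all tested genes. Without MGL KO replicate 4, 6 of the 8 were lower, beside 750 of all 14864 tested genes. C1qa alone lay wholly below WT, by a narrow margin. The positive one was Lyz2, which made 1398 of the 1540 normalized CPM in MGL KO replicate 4. The other 7 summed to 508.1, 191.3, 157.1 and 280.2 in WT and to 132.4, 154.9, 167.2 and 142.8 normalized CPM in MGL KO replicates 1 to 4. Marco, a scavenger receptor gene of macrophage subsets, was at 29.0, 3.42, 0.00 and 2.93 normalized CPM in WT replicates 1 to 4 and at 0.74 or less in MGL KO. Like Saa3 it was highest in WT replicate 1 and lowest among WT in replicate 3. Relative to the sum of all 8 macrophage markers, Saa3 was 0.97% to 12.5% in WT and 0.030% to 0.44% in MGL KO. Relative to the 7 without Lyz2 the groups overlapped, with 1.88% in WT replicate 3 and 2.13% in MGL KO replicate 4. The part of macrophages in the Saa3 values was not tested.

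For Lcn2, the 10 neutrophil markers summed to 25.0, 11.4, 7.63 and 13.4 normalized CPM in WT replicates 1 to 4. In MGL KO replicates 1 to 4 they summed to 8.27, 7.04, 6.54 and 22.7, so that replicate 4 was the highest of its group. Single markers differed. Ly6g was at 0 in 7 of the 8 libraries and Mpo at 0.12 or less in all. Csf3r was at 9.67 and S100a8 at 3.48 normalized CPM in MGL KO replicate 4, each the highest of its group. Camp, at 1.52 in that library, lay within the range of its group. MGL KO replicate 4, where Lcn2 was at 226.9, held the airway secretory sum of 11616 and an airway ciliated sum of 1071 normalized CPM, against 71.8 and 18.2 or less in every other library. The secretory sum comprised the lung and airway genes Scgb1a1 at 2222, Bpifa1 at 2568 and Ltf at 1973 normalized CPM. Without that library the Lcn2 difference was -0.33 on the log2 scale, as given above, but leaving it out removes all that set it apart. The parts of airway tissue and of neutrophils in Lcn2 were not tested. Serpina3n in the same library was at 18.4, the lowest of all 8, and its log2 fold change without it was -2.23.

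**Figure D3:**
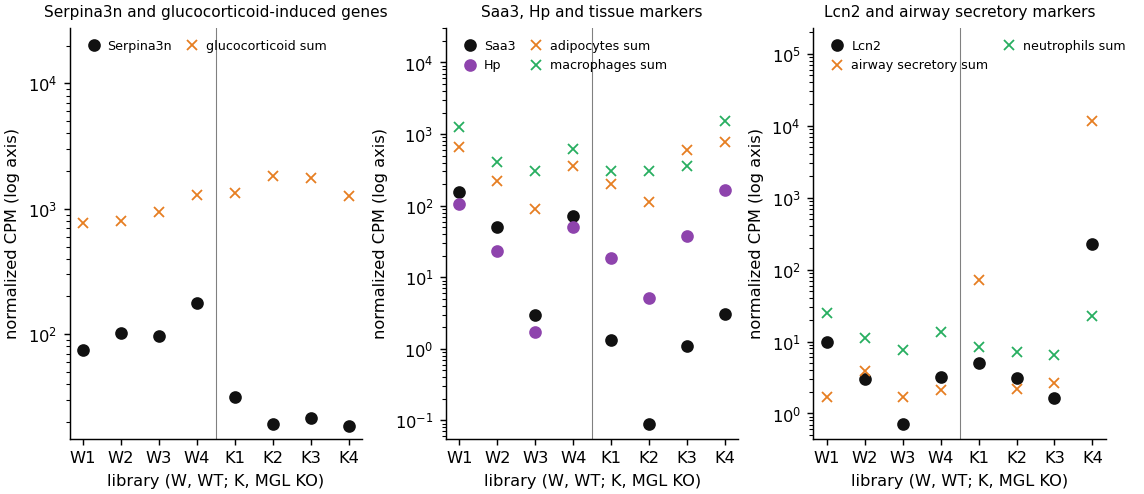
Normalized CPM (log axes) in each library, WT replicates 1 to 4 (W1 to W4) and MGL KO replicates 1 to 4 (K1 to K4), of Serpina3n with the sum of 12 glucocorticoid-induced genes, of Saa3 and Hp with adipocyte and macrophage marker sums, and of Lcn2 with airway secretory and neutrophil marker sums. Hp follows the adipocyte sum in both groups, and Saa3 does so in WT and lies at 3.03 or less in MGL KO. Lcn2 peaks with the airway sum in K4, where the neutrophil sum is also the highest of MGL KO.

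Of 30 further genes listed for the acute phase response, all were in the table and 15 passed the filter. None of the 15 was called by the quasi-likelihood test, by the exact test, by DESeq2 or by limma-voom. At an unadjusted p under 0.05, 3 (Lbp, Mt1 and F3) were higher and none was lower in MGL KO, beside 4.35% higher and 4.29% lower of all tested genes. Without MGL KO replicate 4, a count made after the data were seen, 1 (Mt1) was higher and 1 (C3) lower. In that fit 638 of all 14864 tested genes were higher and 750 lower. Positive log2 fold changes were found for 8 and negative ones for 7. Their median was 0.45 beside 0.02 over all tested genes, and -0.30 beside -0.01 without MGL KO replicate 4. The groups overlapped for all 15, beside 3.3% below and 2.72% above among all tested genes. The 15 untested genes rest on few counts. Of these, Saa2 was lower in every MGL KO library than in any WT library, but WT replicates 2 and 3 held only 2 and 1 counts. Mt2 had 5 to 6 counts in MGL KO and 0 to 2 in WT libraries. Fga, a fibrinogen gene of liver, had 5, 5, 62 and 11 counts in MGL KO and 0 to 4 in WT libraries, the highest being MGL KO replicate 3, where albumin was highest as well.

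Complement C3, the most abundant of the 15 in WT, was at 1517, 397.8, 155.2 and 514.6 normalized CPM in WT and at 190.9, 102.4, 294.8 and 455.1 in MGL KO replicates 1 to 4. Its log2 fold change was -1.31 with a standard error of 0.67, and the groups overlapped. The fold changes of Itih4, a protease substrate of plasma, and C4b, a complement component, were -1.06 and -0.60. In WT all 3 had the replicate order that the adipocyte sum shared with the sums of several other cell types.

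Several genes with higher means in MGL KO were highest in its replicate 4. The copper oxidase gene Cp was at 207.5 normalized CPM in MGL KO replicate 4 and at most 49.0 in the other 7 libraries, and Lbp, which binds bacterial lipopolysaccharide, was at 119.6 against at most 12.5. The metal-binding Mt1 did not depend on that library, with 110.0 to 189.6 normalized CPM in MGL KO and 96.7 to 133.1 in WT, and its log2 fold change was 0.45 with an adjusted p of 0.550. Apcs, the gene of a pentraxin, had no count in any library, and the liver genes Crp and Saa4 had counts only in MGL KO, at 0.43 normalized CPM or less.

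Several cytokines that induce acute phase genes were close to the limit of these libraries. Il6 was at 0.29 normalized CPM or less in all 8 libraries, and Il22 and Il17a were at 0.12 or less. Of the 32 genes listed as cytokines, receptors and transcription factors, 26 passed the filter and none was called by the quasi-likelihood test or by limma-voom. At an unadjusted p under 0.05, 5 were higher and 2 lower in MGL KO, beside 4.35% and 4.29% of all tested genes. The median log2 fold change was 0.09, beside 0.02 over all tested genes, and -0.04 beside -0.01 without MGL KO replicate 4. MGL KO libraries lay wholly above WT for 4 of the 26 and wholly below for 2, beside 2.72% and 3.3% of all tested genes.

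The 4 that lay above were Cebpd, Cebpb, Socs3 and Nfkbia, which encode 2 C/EBP factors and feedback inhibitors of STAT3 and NF-kB. Cebpd was at 21.4, 18.0, 19.3 and 41.9 normalized CPM in WT and at 44.3, 64.9, 62.6 and 55.8 in MGL KO replicates 1 to 4. All 4 MGL KO libraries were above WT replicate 4, the highest of its group, by little in the case of MGL KO replicate 1. Its log2 fold change was 1.18 with a standard error of 0.27. Adjusted p was 0.359 in the quasi-likelihood test, 0.0172 in the exact test and 0.00896 in DESeq2, and the quasi-likelihood test without WT replicate 4 gave 0.0412.

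Socs3, an inducible inhibitor of STAT3 signalling, was at 40.8, 32.5, 40.0 and 38.5 normalized CPM in WT and at 67.7, 52.9, 51.5 and 49.0 in MGL KO replicates 1 to 4. The log2 fold changes were 0.54 ± 0.13 for Socs3, 0.54 ± 0.10 for Nfkbia and 0.56 ± 0.17 for Cebpb (± SE). Nfkbia was called by the exact test (adjusted p 0.0224) and DESeq2 (adjusted p 0.000158), and Socs3 by DESeq2 alone (adjusted p 0.0249). The direction was the opposite of that of Serpina3n.

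The genes whose MGL KO libraries lay wholly below WT were Il1a and Stat3. Il1a, which encodes the interleukin-1 alpha of squamous epithelium, was at 0.91 to 1.38 normalized CPM in WT and 0.18 to 0.61 in MGL KO, a difference of -1.29 on the log2 scale with a standard error of 0.37 (adjusted p 0.478 in the quasi-likelihood test). For Stat3 the separation was slight, with 175.7 to 184.7 in WT and 163.4 to 173.8 normalized CPM in MGL KO and a log2 fold change of -0.08. The signal-transducing receptor chain Il6st was at 286.8 to 373.2 in WT and 367.8 to 379.6 normalized CPM in MGL KO.

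Glucocorticoids are known inducers of Serpina3n and of Cebpd, and 12 further genes induced by them were listed. All 12 passed the filter, none was called by the quasi-likelihood test or limma-voom, and the exact test and DESeq2 called 1, Errfi1 (adjusted p 0.0420 and 0.0194). At an unadjusted p under 0.05, 5 were higher and none was lower in MGL KO, beside 4.35% and 4.29% of all tested genes. Positive log2 fold changes were found for 11 and a negative one for 1, with a median of 0.59 beside 0.02 over all tested genes. Errfi1, a feedback inhibitor of the EGF receptor, was at 21.2 to 37.9 normalized CPM in WT and at 43.5 to 61.5 in MGL KO, a difference of 0.80 on the log2 scale with a standard error of 0.19.

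Within each group, some of these genes stood in an order similar to that of Serpina3n and others did not. Fkbp5 was named for its likeness to Serpina3n with group means removed. Fkbp5, a co-chaperone of the receptor, was at 57.4, 57.9, 56.1 and 87.0 normalized CPM in WT and at 100.4, 76.3, 88.1 and 71.8 in MGL KO replicates 1 to 4. The MGL KO order of replicates was 1, 3, 2, 4 for Serpina3n and for 2 of the 12 genes, Fkbp5 and Tsc22d3. In WT, replicate 4 was the highest for Serpina3n and for 12 of the 12, although none had the full WT order of Serpina3n. The lead of WT replicate 4 was slight for Klf9 (265.1 against 263.5 normalized CPM) and Sult1a1 (19.7 against 18.9) and large for Per1 (115.2 against 42.6). The share of all tested genes with these orders was not counted, so nothing is read from them. The sum of the 12 genes had the MGL KO order 2, 3, 1, 4. Pdk4, for example, was at 278.0, 856.9, 789.5 and 427.5 normalized CPM in MGL KO replicates 1 to 4. Between the groups the directions were opposite, with log2 fold changes of -2.32 ± 0.29 for Serpina3n, 0.38 ± 0.17 for Fkbp5 and 0.71 ± 0.22 for Tsc22d3 (± SE).

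**Figure D4:**
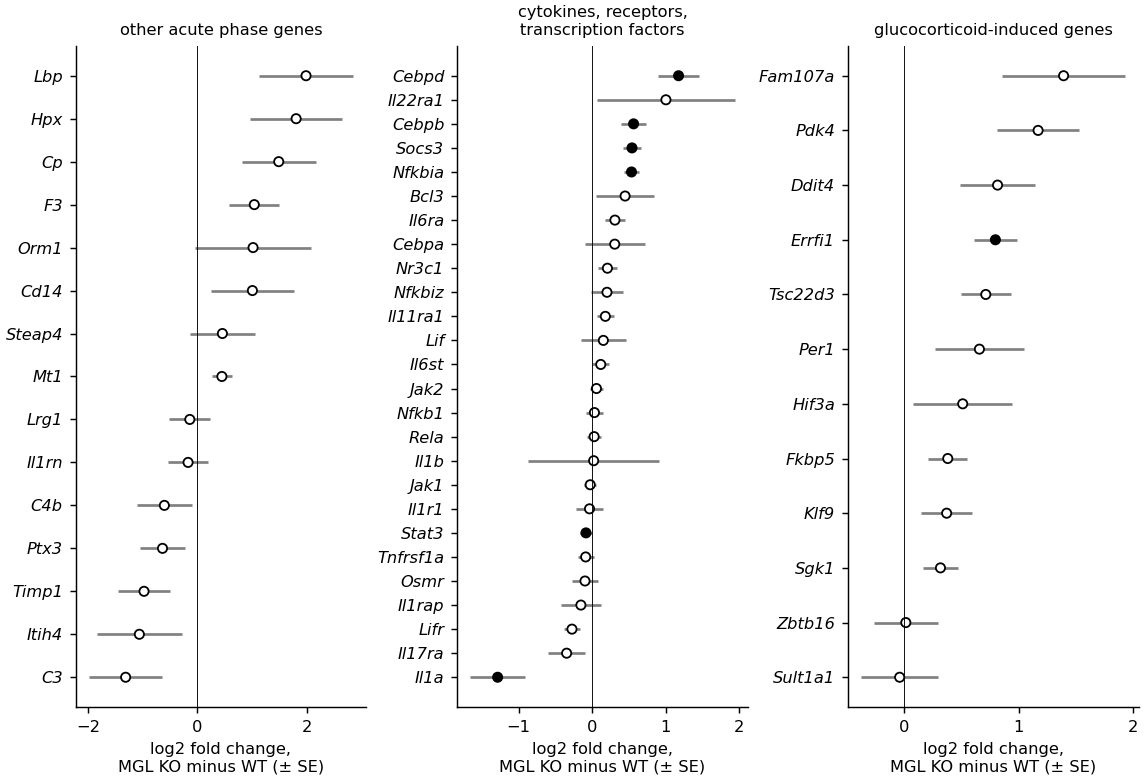
Log2 fold changes (MGL KO minus WT, ± SE, from the quasi-likelihood fit on 4 libraries per group) of 15 further acute phase genes, 26 cytokine, receptor and transcription factor genes and 12 glucocorticoid-induced genes that passed the count filter; filled points mark genes whose 2 groups did not overlap. Cebpd, Cebpb, Socs3, Nfkbia and Errfi1 are filled on the positive side, and Il1a and Stat3 on the negative side.

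The targets and partners of the member proteins were measured in part. Gzmb, Elane and Ctsg, which encode the proteases granzyme B, neutrophil elastase and cathepsin G that serpins of this clade can inhibit, were at 0.39 normalized CPM or less in all 8 libraries. Of the 16 partner genes in the table, 11 passed the filter and none was called by any of the 4 tests. At an unadjusted p under 0.05, 3 were lower and none higher in MGL KO, beside 4.29% and 4.35% of all tested genes. Without MGL KO replicate 4, 5 of the 11 were lower, beside 750 of all 14864 tested genes. The median log2 fold change was -0.48, beside 0.02 over all tested genes. Lrp2, a receptor that takes up lipocalin-2 among many ligands, was at 15.8, 4.00, 0.00 and 2.35 normalized CPM in WT and at 0.90 or less in MGL KO. Cd163, the macrophage receptor for the haptoglobin and hemoglobin complex, was at 22.8 to 66.8 in WT and 16.7 to 39.5 normalized CPM in MGL KO, and Hmox1, which degrades the heme, at 11.2 to 19.6 and 7.76 to 12.5.

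The genes most like Serpina3n were sought by the Pearson correlation of log2 CPM over the 8 libraries, among 14260 tested genes with a mean of at least 1 normalized CPM. The 5 highest were Amigo3 (0.98), Inmt (0.97), Epyc (0.95), Tmem88b (0.94) and Tll2 (0.94). The 5 lowest were Dusp18 (-0.97), Dio2 (-0.97), Fem1b (-0.96), Rhou (-0.95) and Med19 (-0.94). These values carry the group difference, and the libraries share their cell composition. Epyc, a small proteoglycan gene, had a mean of 0.94 in MGL KO and 4.55 normalized CPM in WT, a log2 fold change of -2.25 with a standard error of 0.28. Inmt, a methyltransferase gene, had means of 25.8 and 48.1 normalized CPM. Dio2, the enzyme that activates thyroid hormone, had means of 9.75 in MGL KO and 4.06 normalized CPM in WT.

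With group means removed, the genes most like Serpina3n included Mn1, Abcb10, Snrk and Fkbp5, with correlations from 0.94 to 0.93, and none of these was among the 5 highest over the libraries as they stood.

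**Figure D5:**
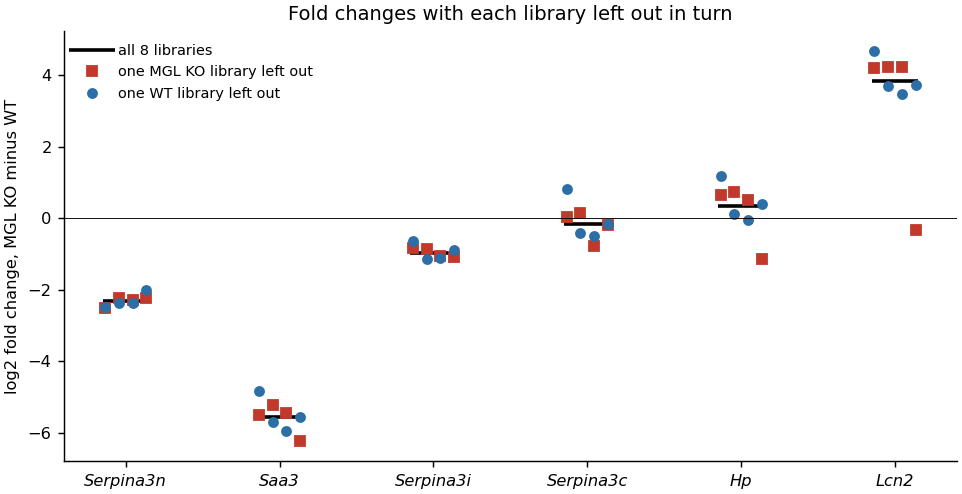
Log2 fold changes (MGL KO minus WT) of the 6 tested genes with all 8 libraries (black bar), with 1 WT library left out (blue circles) and with 1 MGL KO library left out (red squares), replicates 1 to 4 from left to right. Serpina3n stays between -2.52 and -2.01 and Saa3 between -6.25 and -4.83, whereas Serpina3c, Hp and Lcn2 cross 0.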

How the data were processed

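Poly(A)-selected RNA from 4 MGL KO and 4 WT mouse esophagi was analysed, with groups taken from the sample labels. The authors checked reads with FastQC 0.11.9, trimmed them with cutadapt, aligned them to GRCm39 with STAR 2.7.10b and deposited raw counts per gene symbol without normalization. The annotation, counting tool and use of strand are not given in the sources used here. The 10 genes and all lists were chosen with earlier results of these data known. Of 22721 genes with a count, 14864 passed filterByExpr of edgeR 4.0.16 (R 4.3.3; minimum count 10). Normalized CPM used TMM factors. The main test was the quasi-likelihood test of edgeR over all kept genes, with Benjamini-Hochberg adjustment and a threshold of 0.05. The standard error is the log2 fold change over the square root of F. Alternatives were DESeq2 1.42.0, the exact test of edgeR (filtered or unfiltered genes), voom of limma 3.58.1 with quality weights, RLE factors, library size alone, no filter, the replicate number as a block and leaving out each library. The chi-square per degree of freedom between libraries of a group was 13.7 or more, so no library was a repeat of another. Correlations used log2 CPM with a prior count of 1. Named were the 10 genes, genes of the lists with a mean of at least 1 normalized CPM, at 0 in every library or past the threshold, the 5 genes most and least like Serpina3n, and Mgll. A result that needs a withheld item is not reported here. Scarcer genes (Serpina3b, Saa1, Saa2, Saa4, Crp, Il6, Il22, Il17a, Gzmb, Elane, Ctsg, Il1a and single markers) were named after their values were seen. Positions and exon lengths were taken from GENCODE M39 on GRCm39.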

Additional observations from a re-analysis of the deposited data

Results flagged for a closer look

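In groups of 4 libraries, a library was singled out when its gap to the nearest other was too large a part of the range of the group for Dixon's test at the 95% level. Of 122 groups compared, 12 met this, where chance gives about 1 in 20 (6.1), and 9 of the 12 were MGL KO replicate 4. In that library Lcn2 was at 226.9 normalized CPM (next 5.08), Cp at 207.5 (next 49.0), Lbp at 119.6 (next 12.2), Cd14 at 63.3 (next 11.5) and Il22ra1 at 5.45 (next 1.04). The same library stood apart in the summed markers of airway secretory cells at 11616 normalized CPM (next 71.8), airway ciliated cells at 1071 (next 18.2), macrophages at 1540 (next 361.9; Lyz2 alone was at 1398, and the other 7 markers summed to 142.8, within the range of its group) and neutrophils at 22.7 (next 8.27). In WT, replicate 1 was far above the others for Serpina3g at 1.73 normalized CPM (next 0.066), and replicate 4 stood above the others for Cebpd at 41.9 (next 21.4) and, within a narrow range, for Stat3 at 184.7 (next 176.5). The causes were not tested.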

How the results depend on the processing

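The quasi-likelihood test called 7 genes. The count was 65 by the exact test, 42 by the exact test without the filter, 137 by DESeq2, 25 by limma-voom, 2 without the filter and 2 to 5 with each library left out. Of the 6 tested genes chosen here, 1 was called; 2 were called by the exact test, with or without the filter, and by DESeq2, 0 with library size alone, 0 without the filter and 0 to 1 with each library left out (1 without WT replicate 4). The log2 fold change of Serpina3n was -2.36 with library size alone and -2.33 without the filter, both short of the threshold, and -2.52 to -2.01 with each library left out. Among the cytokine, receptor and transcription factor genes, 0 were called, but 2 by the exact test, 1 by it without the filter, 3 by DESeq2 and 0 to 1 with each library left out. No further acute phase gene was called in any fit. The sign turned for Serpina3c (0.45 in limma-voom; -0.79 to 0.82 with libraries left out), Lcn2 (-0.33 to 4.68) and Hp (-1.13 to 1.19). The cause was not tested. With the replicate number as a block (replicate block), 2 genes were called, 0 of them chosen here, and Serpina3n was at -2.28 (adjusted p 0.502 in the quasi-likelihood test); same-numbered libraries correlated at -0.28 to 0.079 in their deviations, so the numbers do not pair them. Depth limits the scarce serpins, of which Serpina3f, Serpina3g and Serpina3m had 15 to 68 counts over all libraries.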
